A study of Mus musculus with 6 samples.

Results

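Genes of heat production and mitochondrial uncoupling were followed in whole mouse aorta. They were taken from the deposited table by their symbols, and all 10 were found among its 55487 genes, each with 1 identifier. They are the uncoupling protein genes Ucp1, Ucp2 and Ucp3, the lipid genes Cidea, Elovl3 and Cpt1b, the enzyme genes Dio2 and Pank1, and the regulators Prdm16 and Ppargc1a. RNA had been sequenced from 3 floxed mouse aorta libraries whose genotype label is LoxP (control) and from 3 libraries labelled as a smooth muscle specific knockout of Ogt (knockout). Ogt encodes O-GlcNAc transferase, which adds N-acetylglucosamine to proteins of the nucleus and cytoplasm. The titles of both groups carry SM22, another name of transgelin, whose promoter is widely used to drive Cre in smooth muscle. The sources used here do not state the Cre line, the age and sex of the mice or the number of mice per library, so p-values measure the spread between these libraries, which may be partly technical.

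Thermogenic genes are best known from brown fat, which surrounds much of the rodent thoracic aorta as perivascular fat. Uncoupling protein 1 lets protons return across the inner mitochondrial membrane without making ATP, so that the energy of respiration is released as heat. Cold acts through noradrenaline, beta-adrenergic receptors and cyclic AMP, which release fatty acids and switch on these genes, with PRDM16 and PGC-1alpha as transcriptional regulators of the programme. UCP2 and UCP3 are relatives of UCP1 found in many tissues and in muscle, and are not regarded as the heat producers of brown fat.

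Ogt itself, the check of the labels, had 177.4, 183.2 and 150 CPM (read counts scaled to a common library size, after TMM normalization) in control replicates 1 to 3 and 93.3, 73.5 and 70.9 CPM in knockout replicates 1 to 3. Its log2 fold change was -1.10 ± 0.15 (SE, edgeR adjusted p = 0.0214). With 1 library left out, that call held without control replicate 2 and in 1 of the other 5 fits, where the adjusted p ranged from 0.0306 to 0.126. Total counts ran from 3038782 to 18218385 per library. The lowest total was in control replicate 2, which also stood apart in composition, with 10.2% of its counts in mitochondrial ribosomal RNA against 0.491% to 0.823% in the other libraries. Fits without that library are given where they change a call. As measures of the tissue, the 8 smooth muscle markers summed to 7250 to 11400 FPKM (the deposited values, scaled for gene length and depth), and the 16 adipocyte markers to 587 to 1020 FPKM. No marker of either list was at 0 in all libraries. Tagln, the transgelin (SM22) gene itself, was the 1 smooth muscle marker called. It had 6065, 4249 and 6345 CPM in control replicates 1 to 3 and 2343, 2367 and 2869 CPM in knockout replicates 1 to 3 (log2 fold change -1.14 ± 0.19, edgeR adjusted p = 0.0331). With 1 library left out, its call held without control replicate 2 alone, and the adjusted p was 0.0588 to 0.186 in the other fits.

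Ucp1 was the member that changed most. It was 5.45-fold lower in knockout aorta, and Pank1, which catalyses the first step of coenzyme A synthesis, was 1.94-fold lower. These were the 2 members, of the 9 with enough counts to be tested, called by the quasi-likelihood test of edgeR, with 0.05 as the limit on adjusted p. Of all 16139 tested genes, 3.45% were called, 1.56% lower and 1.9% higher. No member was called higher. At an unadjusted p under 0.05, 5 members were lower and 0 higher, against 22.7% of all genes in either direction (11.3% lower and 11.5% higher). DESeq2 called 4 members lower, where it called 5.11% of genes lower and 5.22% higher, and limma called 2, where it called 2.33% lower and 2.4% higher. Without control replicate 2, edgeR called 3 members lower (Ucp1, Pank1 and Dio2), with 2.54% of genes lower and 2.97% higher. Elovl3 had too few counts for the test. Log2 fold changes (knockout minus control) were negative for 8 of the 9 and positive for Ucp2, with a median of -0.73 against -0.01 over all tested genes. Knockout libraries were all below control libraries for 4 of the 9 members (Ucp1, Pank1, Dio2 and Cpt1b), as for 14.8% of all tested genes. In bulk tissue, fewer cells of a type and less RNA per cell cannot be told apart.

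**Figure D1:**
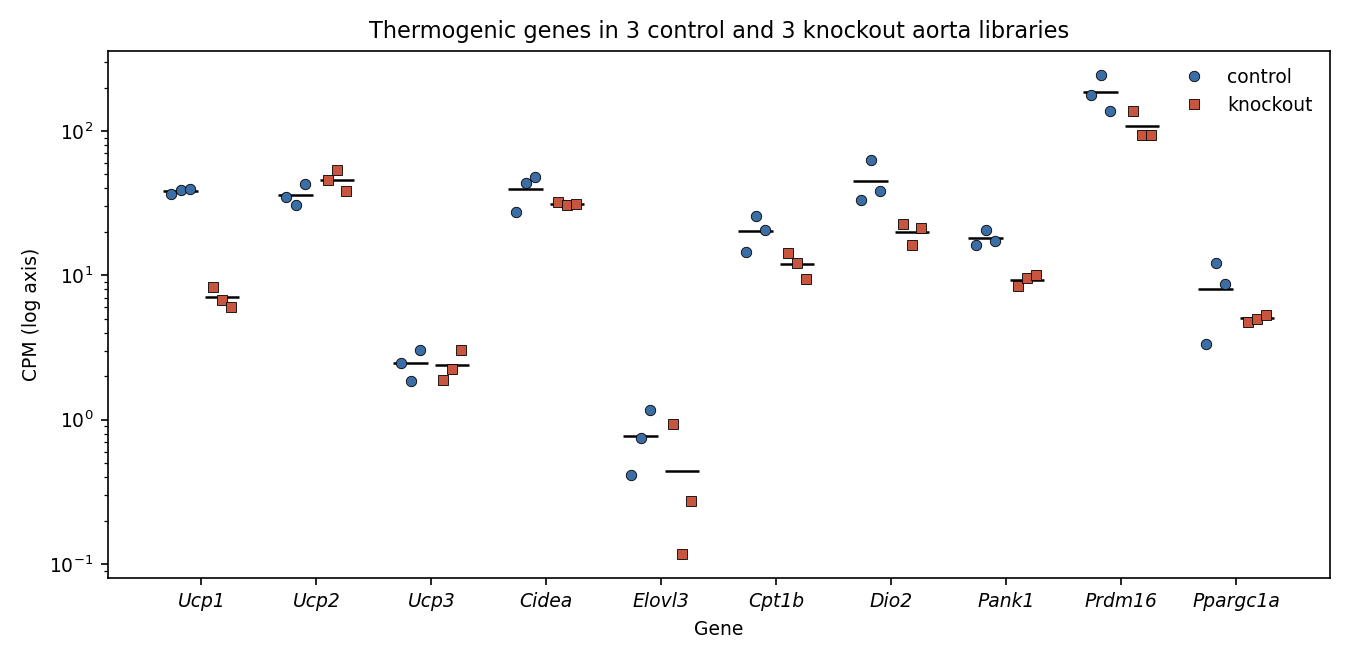
CPM (log axis) of each thermogenic gene in every library. Circles are control and squares knockout libraries, in the order of replicates 1 to 3, and short lines are group means of 3 libraries. Ucp1 lies between 36.6 and 39.6 CPM in controls and between 6.05 and 8.34 CPM in knockouts. The groups of Ucp2, Ucp3, Cidea, Elovl3, Prdm16 and Ppargc1a overlap.

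The uncoupling protein genes did not move together. Ucp1 (ENSMUSG00000031710; GRCm38 chromosome 8, 83290352 to 83298452, plus strand; no other gene of the table overlaps it) had 36.6, 38.9 and 39.6 CPM in control replicates 1 to 3. It had 8.34, 6.71 and 6.05 CPM in knockout replicates 1 to 3. The control libraries lay close together, control replicate 2 included, and every knockout library lay far below them. The means were 38.4 ± 1.57 and 7.03 ± 1.18 CPM (SD, n = 3), which leaves 18.3% of the control level. The log2 fold change was -2.45 ± 0.16 (SE), with a 95% interval of -2.83 to -2.08 and an edgeR adjusted p of 0.0023. Ucp1 was called in all 12 alternative fits, with log2 fold changes of -2.58 to -2.35. These values rest on 98 to 544 reads per library.

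Ucp2 and Ucp3 are neighbours on chromosome 7, with 6904 bases between the end of Ucp3 (ENSMUSG00000032942; 100472990 to 100486432) and the start of Ucp2 (ENSMUSG00000033685; 100493337 to 100502020). Ucp2 had 34.99, 30.8 and 42.7 CPM in control replicates 1 to 3 and 45.8, 53.4 and 38.5 CPM in knockout replicates 1 to 3. The groups overlapped, and the log2 fold change of 0.33 had a 95% interval of -0.07 to 0.73 (edgeR adjusted p = 0.301). A rise of up to 0.73 on the log2 scale therefore lies within the error. Ucp2 is abundant in macrophages, and beside it the 8 macrophage markers summed to 169, 76.6 and 316 FPKM in control replicates 1 to 3 and to 226, 234 and 195 FPKM in the knockout replicates 1 to 3. Within each group of 3 libraries, the order of these sums was that of Ucp2, but over all 6 libraries it was not. Control replicate 3 had the largest sum, while its Ucp2 level was below those of knockout replicates 1 and 2. By edgeR 0 of the 8 markers were called and 0 had an unadjusted p under 0.05, against 3.45% and 22.7% of all tested genes. DESeq2 and limma called 0, where DESeq2 called 5.11% of genes lower and 5.22% higher and limma 2.33% and 2.4%. So few markers do not tell these counts from those shares. Their part in the Ucp2 values was not tested.

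Ucp3 was a rare transcript, with 36, 5 and 42 reads in control replicates 1 to 3 and 22, 38 and 56 reads in knockout replicates 1 to 3. That made 2.47, 1.85 and 3.05 CPM in controls and 1.87, 2.24 and 3.05 CPM in knockouts. The ranges of the groups were nearly the same. Its log2 fold change of -0.09 had a 95% interval of -0.84 to 0.66 (edgeR adjusted p = 0.897), so changes within that interval, in either direction, were not excluded. The sign turned to 0.09 without control replicate 3 and to 0.06 without knockout replicate 1.

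The difference between Ucp1 and its relative was measured within each library. The FPKM of Ucp1 was 6.03, 7.29 and 5.34 times that of Ucp2 in the 3 control libraries, and 1.05, 0.724 and 0.906 times in the 3 knockout libraries. The deposited FPKM use too long a length for Ucp2, which raises all 6 ratios alike and leaves their difference as it is. The mean log2 ratio went from 2.63 ± 0.23 to -0.18 ± 0.27 (SD, n = 3), a difference of -2.8. A two-sided exact permutation test gave p = 0.1 (0.133 adjusted over 4 ratios), and 0.1 is the smallest p that 3 against 3 libraries allow. Of the 11 tested other carriers of the inner mitochondrial membrane, among them the adenine nucleotide carriers Slc25a4 (log2 fold change -0.01) and Slc25a5 (0.43, edgeR adjusted p = 0.128) and the UCP relatives Slc25a14 (-0.19), Slc25a27 (-0.38) and Slc25a30 (-0.38), edgeR called 0, as did DESeq2 and limma, and 1 (Slc25a5) had an unadjusted p under 0.05. The carnitine carrier Slc25a20 (log2 fold change -0.29) and the aspartate-glutamate carrier Slc25a12 (-0.23) were among those not called. With 3.45% of all genes called and 22.7% at an unadjusted p under 0.05, these counts do not set the carriers apart.

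**Figure D2:**
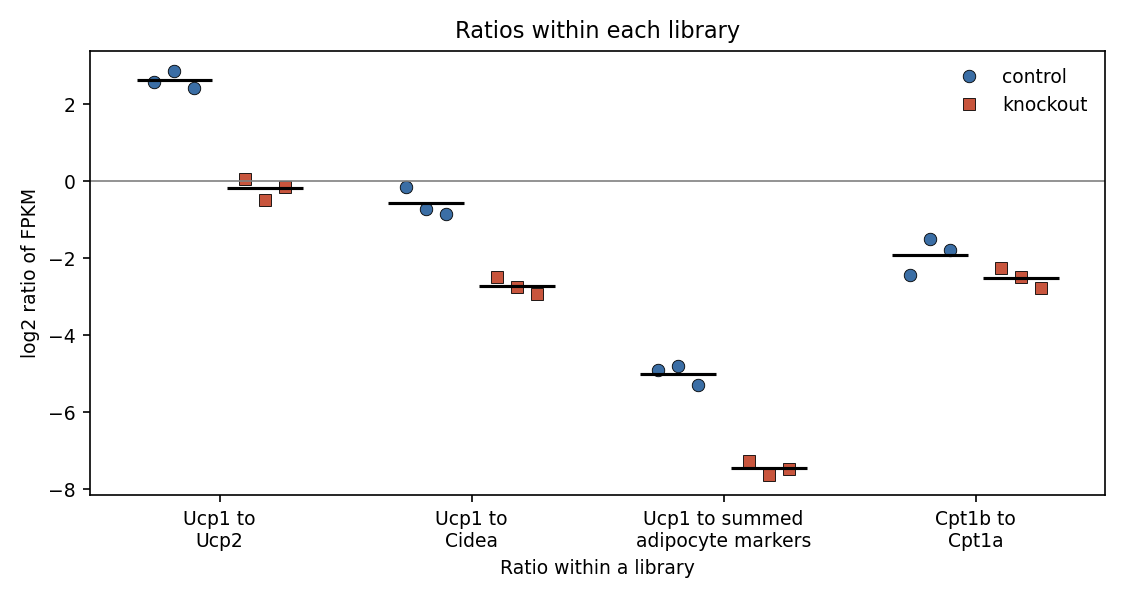
Log2 ratio of FPKM within each library for 4 pairs. Circles are control and squares knockout libraries, and short lines are group means. The 3 ratios with Ucp1 do not overlap between groups, while those of Cpt1b to Cpt1a overlap.

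Promoter windows were found in RefSeq (GRCm38.p6) for 7 of the 10 genes, and those for Cidea, Elovl3 and Cpt1b are not used here. The windows of Ucp1 and Pank1, the genes that fell, are shown with that of Ucp2, which was not called, and that of Dio2, which held 2 of the 4 motifs searched. Each is the run of 250 bases before the start site, 5′ to 3′ on the gene's strand, with matches in capitals.
Ucp1, chr8:83290098-83290347, plus strand: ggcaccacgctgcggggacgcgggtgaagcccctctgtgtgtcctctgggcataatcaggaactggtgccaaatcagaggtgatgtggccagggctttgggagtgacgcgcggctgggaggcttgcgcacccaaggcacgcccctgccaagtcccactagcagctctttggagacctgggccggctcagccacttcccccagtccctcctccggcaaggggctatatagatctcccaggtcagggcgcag
Ucp2, chr7:100493108-100493357, plus strand: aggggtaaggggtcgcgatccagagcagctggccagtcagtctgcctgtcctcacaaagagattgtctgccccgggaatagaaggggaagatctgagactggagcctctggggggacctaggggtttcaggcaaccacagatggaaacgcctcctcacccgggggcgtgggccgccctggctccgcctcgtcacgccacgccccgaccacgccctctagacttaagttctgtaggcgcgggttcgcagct
Pank1, upstream start, chr19:34879456-34879705, minus strand: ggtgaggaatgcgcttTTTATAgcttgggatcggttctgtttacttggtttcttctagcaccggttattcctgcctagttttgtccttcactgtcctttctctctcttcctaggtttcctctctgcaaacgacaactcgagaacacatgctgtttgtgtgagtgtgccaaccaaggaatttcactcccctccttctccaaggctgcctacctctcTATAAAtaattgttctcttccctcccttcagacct
Dio2, chr12:90739039-90739288, minus strand: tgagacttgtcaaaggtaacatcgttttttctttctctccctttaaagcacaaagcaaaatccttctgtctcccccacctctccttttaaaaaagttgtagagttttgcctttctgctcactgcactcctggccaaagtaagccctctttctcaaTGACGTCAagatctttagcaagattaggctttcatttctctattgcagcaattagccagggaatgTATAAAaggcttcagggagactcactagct
4 motifs were searched on both strands. They were AAGGTCA, the extended site read by oestrogen-related receptors (in 4.08% of all 32851 windows), TGACGTCA, the cyclic AMP response element (1.55%), TATAAA, a form of the TATA box (12.4%), and the NRF1 site (0.782%). Only exact matches were counted. Dio2 held the cyclic AMP element, beginning 95 bases before the start, and a TATAAA beginning 30 bases before it. This is the RefSeq start, and it lies upstream of the counted Dio2 gene (90724552 to 90738438), which the window does not adjoin. The upstream Pank1 window held TATAAA beginning 35 bases before the start, and again on the opposite strand at 234 bases. None of the 4 exact strings was present in the windows of Ucp1, Ucp2, Ucp3, Prdm16 and Ppargc1a or in the second Pank1 window (chr19:34877918-34878167). Variants were not searched. The Ucp1 window holds the similar string tatata near its end, so a missing TATAAA does not mean a missing TATA box. The windows differed in composition. That of Ucp1 held 64.8% G and C and 12 CpG dinucleotides and that of Ucp2 63.6% and 16, while that of Dio2 held 41.6% and 2 (medians over all windows 52.4% and 6). A match is a description of the letters and not of binding.

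Cidea encodes a protein of the lipid droplet surface that is a classical brown fat marker (ENSMUSG00000024526; chromosome 18, 67343604 to 67367785). It had 27.6, 43.8 and 48.3 CPM in control replicates 1 to 3 and 32.0, 30.8 and 31.2 CPM in knockout replicates 1 to 3. All knockout libraries lay inside the control range, above control replicate 1 and below the others. The log2 fold change of -0.34 had a 95% interval of -0.82 to 0.14 (edgeR adjusted p = 0.369), which does not reach the change of Ucp1. The Ucp1 to Cidea ratio of FPKM was 0.904, 0.606 and 0.558 in the 3 control libraries and 0.178, 0.148 and 0.132 in the 3 knockout libraries. Its mean log2 value differed by -2.15 (exact two-sided permutation test, p = 0.1, adjusted p = 0.133, n = 3 per group). The 2 groups of ratios did not overlap.

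Elovl3, an elongase of very long chain fatty acids that cold induces in brown fat (ENSMUSG00000038754; chromosome 19, 46131897 to 46135694), was near the limit of detection. It had 6, 2 and 16 reads in control replicates 1 to 3 and 11, 2 and 5 reads in knockout replicates 1 to 3, and did not pass the count filter. The groups overlapped. None of the other elongases was called. Those with the smallest unadjusted p were Elovl5, with 78.8 ± 5.37 and 60.7 ± 3.35 CPM in controls and knockouts (edgeR adjusted p = 0.105), and Elovl1, with 56.4 ± 2.16 and 68.3 ± 1.84 CPM (0.165).

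Cpt1b is the muscle form of carnitine palmitoyltransferase 1, which admits long chain fatty acids to mitochondria (ENSMUSG00000078937; chromosome 15, 89416405 to 89425863). It had 14.6, 25.6 and 20.7 CPM in control replicates 1 to 3 and 14.4, 12.2 and 9.49 CPM in knockout replicates 1 to 3. The groups were separate only by the small gap between control replicate 1 and knockout replicate 1. The log2 fold change of -0.73 ± 0.25 was not called (edgeR adjusted p = 0.139). A readthrough gene on the same strand, Gm44502, overlaps Cpt1b and holds 337 reads over the 6 libraries, against 1116 for Cpt1b, so the division of reads between them is uncertain. Cpt1a, the widely expressed form, had 162.0 ± 9.75 and 146.3 ± 3.99 CPM (log2 fold change -0.15, edgeR adjusted p = 0.458). The log2 ratio of Cpt1b to Cpt1a overlapped between groups (mean -1.90 ± 0.48 and -2.50 ± 0.26, SD, n = 3; exact two-sided permutation test, p = 0.2, adjusted p = 0.2). Cpt1b is also a gene of striated muscle. The 10 skeletal muscle markers beside it summed to 19.4 to 33.1 FPKM in controls and 18.8 to 25.8 FPKM in knockouts, with 1 of 5 tested called higher (Ckm) and 1 lower (Casq1). Of all tested genes, edgeR called 1.9% higher and 1.56% lower. The sums rest largely on these 2 genes. In control replicate 1, with a sum of 30.8 FPKM, Casq1 had 27.0 and Ckm 0.885 FPKM. In knockout replicate 1, with a sum of 25.5 FPKM, Casq1 had 4.38 and Ckm 18.5 FPKM. Overlapping sums therefore do not show an equal content of skeletal muscle. With 1 library left out, Ckm was called each time, while Casq1 lost its call in 3 fits, with edgeR adjusted p-values of 0.0906 (control replicate 1 left out), 0.105 and 0.112 (knockout replicates 1 and 2 left out). The 8 heart muscle markers summed to 10.6 to 14.5 and 14.4 to 24.3 FPKM, with 1 called higher (Actc1). Actc1 was not called without control replicate 1 (0.118) or without knockout replicates 1 to 3 in turn (0.145, 0.144 and 0.0794). Their part in the Cpt1b values was not tested.

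Dio2 encodes type 2 deiodinase, which turns thyroxine into the active hormone T3 inside brown adipocytes (ENSMUSG00000007682; chromosome 12, 90724552 to 90738438). It had 33.3, 63.4 and 38.5 CPM in control replicates 1 to 3 and 22.5, 16.3 and 21.4 CPM in knockout replicates 1 to 3. Every knockout library was below every control library, and control replicate 2 was far above the other controls. The log2 fold change of -1.14 ± 0.26 had a 95% interval of -1.74 to -0.54 and just missed the threshold (edgeR adjusted p = 0.0581). Dio2 was called in 4 of the 12 alternative fits. Without control replicate 2 the change was smaller, -0.83, but the adjusted p was 0.0435 (in that fit 2.54% of all tested genes were called lower). By DESeq2, which called 5.11% of genes lower, the adjusted p was 0.00193. The other 2 were the fits to nuclear protein-coding genes only (0.0482) and without a count filter (0.0278). Its relatives were all but absent, with 0 reads for Dio1 and 7 for Dio3 in the 6 libraries.

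Pank1 is a pantothenate kinase and a source of coenzyme A for fatty acid oxidation (ENSMUSG00000033610; chromosome 19, 34806940 to 34879455). It had 16.2, 20.8 and 17.4 CPM in control replicates 1 to 3 and 8.42, 9.53 and 9.98 CPM in knockout replicates 1 to 3. The groups were well apart and narrow. The means were 18.1 ± 2.39 and 9.31 ± 0.801 CPM (SD, n = 3), and the log2 fold change was -0.94 ± 0.16 (edgeR adjusted p = 0.0336). The size held at -1.02 to -0.84 in the alternative fits, but the call was lost without control replicate 1 (0.111), control replicate 3 (0.0615) or knockout replicates 1 to 3 (0.172, 0.146 and 0.0827). Reads from its 2 annotated start sites were not counted apart.

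Of 7 tested genes of the other steps of coenzyme A synthesis and of carnitine handling, edgeR and limma called 0, a count that the 3.45% called over all genes would also give. Ppcdc, the decarboxylase of the same pathway, had 17.2, 16.7 and 12.4 CPM in control replicates 1 to 3 and 9.19, 8.12 and 8.72 CPM in knockout replicates 1 to 3. Its groups did not overlap, the log2 fold change was -0.82 ± 0.18 and the edgeR adjusted p 0.0546. It was the 1 of the 7 genes with an unadjusted p under 0.05 and DESeq2 called 1. Ppcs (log2 fold change 0.24), Coasy (-0.13) and the other kinases Pank2 (-0.22), Pank3 (-0.43, edgeR adjusted p = 0.126) and Pank4 (0.03) were not called. Of the paralogs of the members, edgeR and limma called 0 of 15 tested and DESeq2 0 of 14, and 3 of 15 had an unadjusted p under 0.05 (22.7% over all genes).

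**Figure D3:**
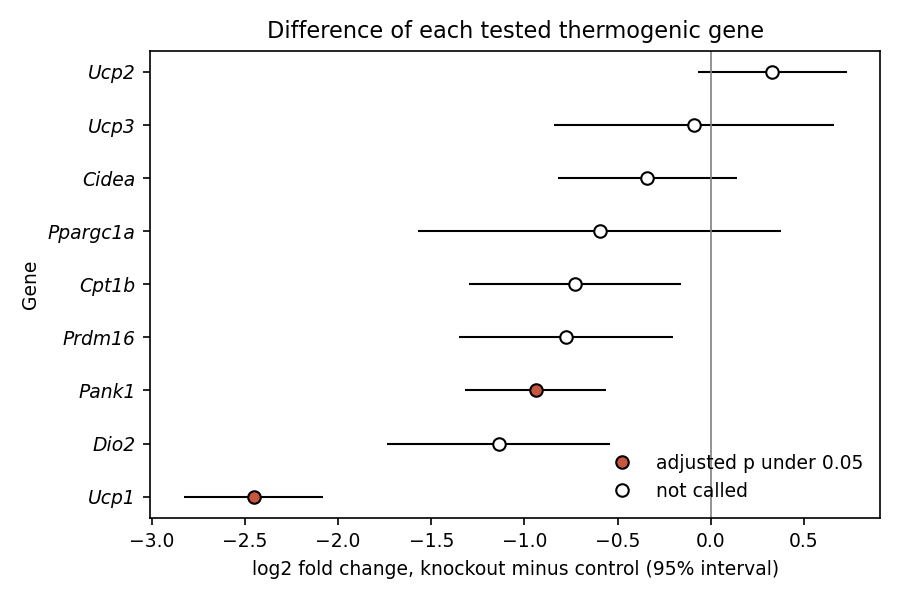
Log2 fold change (knockout minus control) of the 9 tested thermogenic genes, with its 95% interval as a line. Filled points were called by edgeR: Ucp1 at -2.45 and Pank1 at -0.94.

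Neither regulator was called by edgeR, and the groups of both overlapped. Prdm16, a zinc finger regulator that drives brown adipocyte identity (ENSMUSG00000039410; chromosome 4, 154316125 to 154636873), had 177.5, 245.5 and 138.0 CPM in control replicates 1 to 3. It had 138.4, 94.2 and 93.8 CPM in knockout replicates 1 to 3. Control replicate 3 and knockout replicate 1 were nearly equal. The log2 fold change was -0.78 ± 0.25 (edgeR adjusted p = 0.123), and -0.53 (0.182) without control replicate 2, while DESeq2 called it (0.0356). Mecom, its closest relative, had 37.2 ± 17.0 and 23.2 ± 1.13 CPM, and its log2 fold change of -0.64 was not called (edgeR adjusted p = 0.246).

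Ppargc1a, the gene of the coactivator PGC-1alpha (ENSMUSG00000029167; chromosome 5, 51454250 to 51567726), varied more among controls than between groups. Its level was 3.37, 12.2 and 8.65 CPM in control replicates 1 to 3 and 4.76, 5 and 5.34 CPM in knockout replicates 1 to 3. The knockout libraries lay close together inside the control range. The log2 fold change was -0.59 with a 95% interval of -1.57 to 0.38 (edgeR adjusted p = 0.44), and it was -0.25 without control replicate 2 and -1.02 without control replicate 1. Of 17 tested partners of PGC-1, edgeR and limma called 0, DESeq2 called 1 (Irf4, log2 fold change -1.13, edgeR adjusted p = 0.0706) and 2 (Irf4 and Zfp516) had an unadjusted p under 0.05, against 22.7% of all genes. Zfp516 (-0.81, 0.154), Esrra (-0.15, 0.678), Ppara (-0.51, 0.363), Pparg (-0.06, 0.928) and Tfam (-0.21, 0.548) were among the partners not called, with log2 fold change and edgeR adjusted p given for each. Ppargc1b, a paralog of Ppargc1a (-0.95, 0.324), was not called either.

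Levels of different genes were compared as CPM per kilobase of the gene's exons, each base counted once. In controls Cidea stood first with 35.8 ± 9.79, then Ucp1 with 23.4 ± 0.961, Prdm16 with 20.1 ± 5.83, Dio2 with 7.75 ± 2.77, Cpt1b with 6.02 ± 1.64 and Ucp2 with 5.17 ± 0.863 CPM per kb (SD, n = 3). Pank1 (2.19), Ppargc1a (1.23), Ucp3 (0.785) and Elovl3 (0.391) followed. In that order the ranges of Ucp1 and Prdm16, of Dio2, Cpt1b and Ucp2 in turn, and of Ppargc1a and Ucp3 overlapped between neighbours. In knockouts Cidea (28.1 ± 0.536) was followed by Prdm16 (11.7 ± 2.75), Ucp2 (6.57 ± 1.07) and Ucp1 (4.30 ± 0.719), so that Ucp1 went from rank 2 to rank 4, while its range overlapped that of Cpt1b (3.56 ± 0.727). With the longest transcript as length, Ucp2 had 9.06 CPM per kb in controls and rank 4 in place of 6, whereas the ranks of Ucp1 were unaltered. Between Ucp2 and its neighbours the order therefore depends on which length is used.

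**Figure D4:**
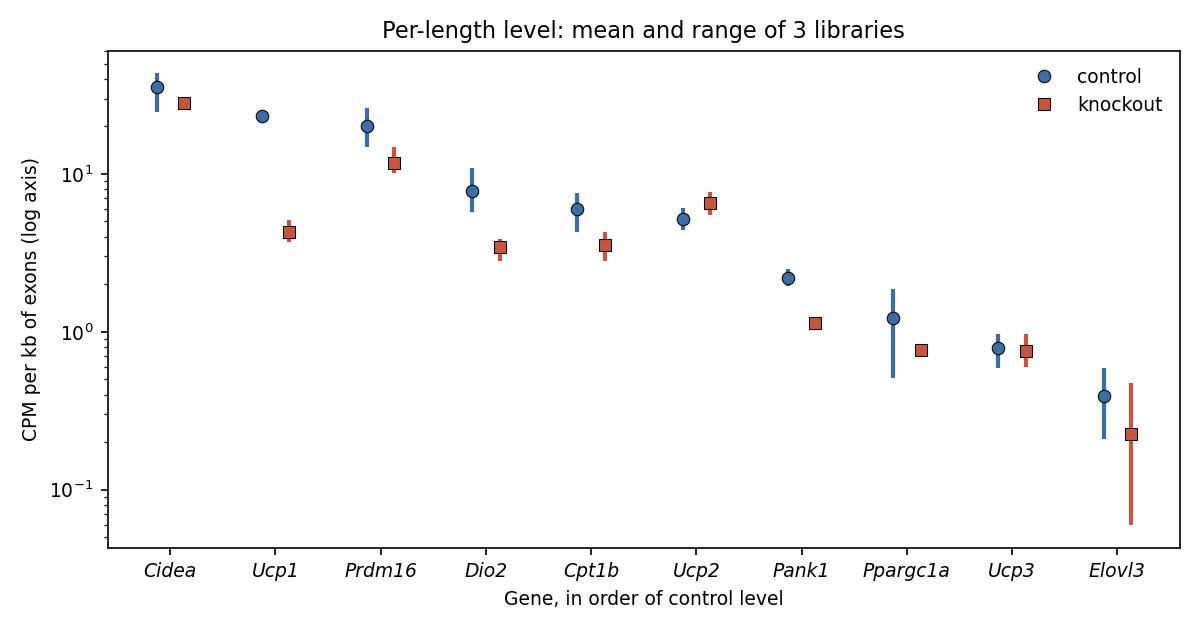
Per-length level (CPM per kb of exons, log axis) of the thermogenic genes, ordered by control level. Points are means and vertical lines the range of 3 libraries per group. Ucp1 lies at 23.4 in controls and 4.30 in knockouts, below Ucp2 at 6.57.

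Among other genes of the thermogenic programme, 3 fell, namely Cox8b, Cox7a1 and Kcnk3. The list held 34 genes, of which 25 were tested, and edgeR called 0 higher and left 22 without a call. With p unadjusted and under 0.05 there were 11 lower and 0 higher, DESeq2 called 6 lower and limma 3. Over all tested genes the shares called lower were 1.56% by edgeR, 11.3% unadjusted, 5.11% by DESeq2 and 2.33% by limma. The median log2 fold change was -0.51 and 20 of 25 were negative, as for 51.3% of all tested genes. The respiratory chain subunit Cox8b had 7.29, 10.01 and 12.9 CPM in control replicates 1 to 3 and 3.74, 4.29 and 3.27 CPM in knockout replicates 1 to 3 (edgeR adjusted p = 0.0398). Its sister subunit Cox7a1 had 2.89, 2.23 and 3.78 CPM against 0.766, 1.18 and 0.709 CPM (0.0461). Both are forms typical of brown fat and striated muscle, and their groups did not overlap.

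The potassium channel gene Kcnk3, which is enriched in brown fat and also expressed in vascular smooth muscle, had 13.7, 26.0 and 21.1 CPM in control replicates 1 to 3. It had 7.74, 9.23 and 7.96 CPM in knockout replicates 1 to 3, a log2 fold change of -1.25 ± 0.24 (edgeR adjusted p = 0.043). Gm9899, on the opposite strand, overlaps it and holds 80 reads. Of the fits that left out 1 library, only the one without control replicate 2 kept the calls of Cox8b, Cox7a1 and Kcnk3. In the others the adjusted p was 0.0764 to 0.186, 0.109 to 0.209 and 0.078 to 0.198, respectively. Slc27a2, a fatty acid transporter and acyl-CoA synthetase, had the largest log2 difference among the tested genes of that list that were not called (7.11 ± 3.57 and 1.82 ± 0.567 CPM, edgeR adjusted p = 0.066). Letmd1 (log2 fold change -0.63, edgeR adjusted p = 0.0759) and the proton channel gene Otop1 (-1.02, 0.166) were not called either. Cited1, a beige fat marker with too few counts to be tested, had 2, 0 and 4 reads in control replicates 1 to 3. It had 12, 16 and 11 reads in knockout replicates 1 to 3. In CPM its knockout libraries were all above the controls, as for 16.9% of all tested genes. Other beige markers of the list did not share this. Tmem26 (log2 fold change -0.59, edgeR adjusted p = 0.585) and Tbx1 (-0.23, 0.709) overlapped between groups, and Tnfrsf9 had 3 reads in all 6 libraries. Early markers of the brown lineage were scarce, with 3 reads for Zic1 and 28 for Lhx8 in all 6 libraries, while Ebf2 had 5.92 ± 1.38 and 3.59 ± 0.419 CPM (log2 fold change -0.69, edgeR adjusted p = 0.168).

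Of 13 tested adrenergic and cyclic AMP genes, 1 fell (Prkar2b), where 1.56% of all genes were called lower, so the result is about that gene and not the group. Prkar2b, the regulatory RII-beta subunit through which cyclic AMP controls protein kinase A in fat and brain, had 31.8, 41.9 and 43.0 CPM in control replicates 1 to 3 and 14.6, 21.0 and 16.9 CPM in knockout replicates 1 to 3. The groups were far apart, and the log2 fold change was -1.14 ± 0.19 (edgeR adjusted p = 0.0312). Without 1 library the call held only where control replicate 2 was left out, and in the other fits the adjusted p was 0.0593 to 0.158. The beta3-adrenergic receptor Adrb3, which carries the cold signal in rodent fat, had 11.3 ± 1.5 and 11.6 ± 2.81 CPM (log2 fold change 0.06, edgeR adjusted p = 0.909). The catalytic subunits Prkaca (-0.14) and Prkacb (0.26), the cyclase Adcy3 (-0.19), the regulatory subunit Prkar1a (0.18) and the phosphodiesterases Pde3b (-0.24) and Pde4d (-0.87, edgeR adjusted p = 0.194) were not called either.

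**Figure D5:**
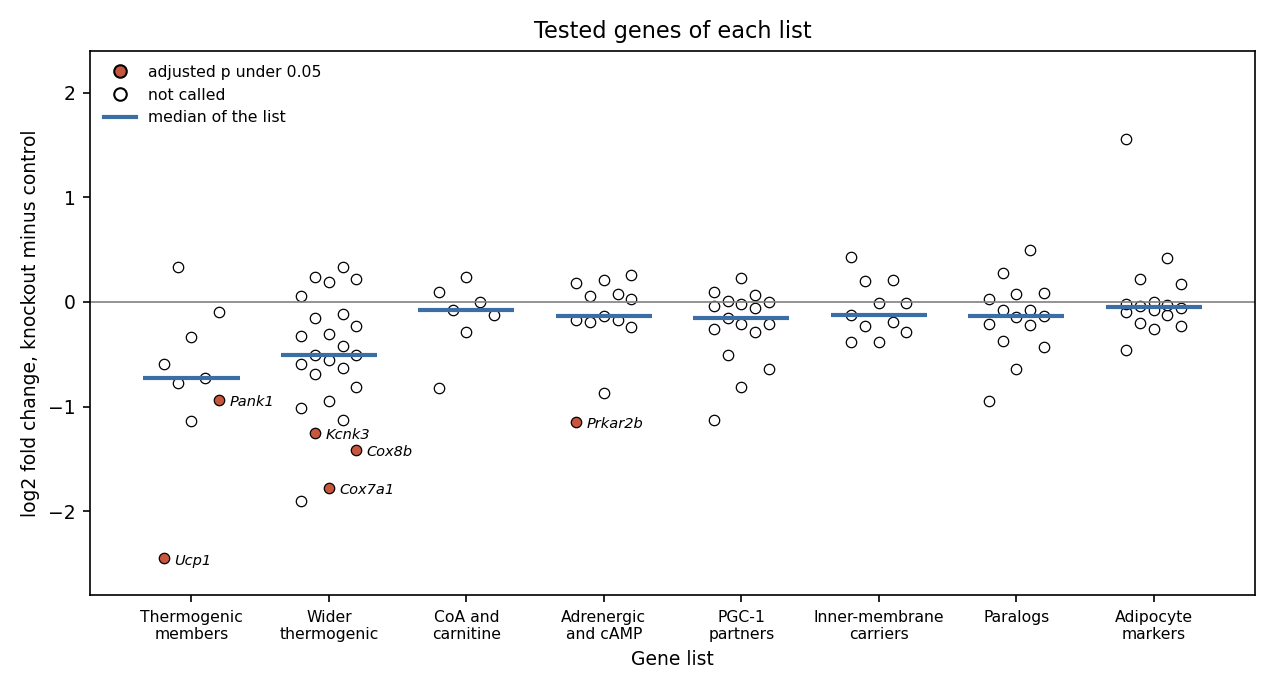
Log2 fold change (knockout minus control) of each tested gene in 8 lists. Filled, named points were called by edgeR and bars are list medians: -0.73 for the thermogenic members, -0.51 for the wider thermogenic list and -0.05 for the adipocyte markers.

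Of the general markers of adipocytes, edgeR and limma called 0 of 16 and DESeq2 0 of 15, and 3 of 16 had an unadjusted p under 0.05. Both counts are near the shares over all genes (3.45% called and 22.7% unadjusted), and the median log2 fold change was -0.05. Adiponectin (Adipoq) had 57.3, 56.0 and 76.7 CPM in control replicates 1 to 3 and 54.8, 60.0 and 48.0 CPM in knockout replicates 1 to 3, so its groups overlapped. Leptin (Lep), the hormone typical of white fat, had 2 to 10 reads per control library and 26 to 46 per knockout library (log2 fold change 1.55, edgeR adjusted p = 0.0752), and Plin1, a droplet coat protein, had a log2 fold change of -0.46 (0.167). Slc2a4, the insulin-responsive glucose transporter, had one of 0.42 (0.104), and the droplet protein gene Plin4 one of 0.22 (0.304). The summed markers were 703, 587 and 1020 FPKM in the 3 control libraries and 773, 801 and 664 FPKM in the 3 knockout libraries, so the sums overlapped. The ratio of Ucp1 to that sum was 0.0337, 0.036 and 0.0253 in controls and 0.00654, 0.00505 and 0.0056 in knockouts, a mean log2 difference of -2.46 (exact two-sided permutation test, p = 0.1, adjusted p = 0.133, n = 3 per group). The log2 fold change of Ucp1 in the edgeR fit was -2.45. The sum is weighted towards its largest members, with Cfd alone at 275.6 FPKM in control replicate 1 and 464.5 FPKM in control replicate 3. It covers general adipocyte markers and does not measure brown adipocytes. Their part in the Ucp1 values was not tested.

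Among tested genes with a mean of at least 1 CPM and no predicted-gene symbol, the 5 whose profile over the 6 libraries lay nearest to that of Ucp1 were Zfp239, Zfp62, Egr1, Faim2 and Rab17. Nearness was the root-mean-square distance of log2 CPM after centring each gene on its mean, and was 0.293, 0.32, 0.332, 0.333 and 0.357 log2 units. Zfp239 and Zfp62 are zinc finger genes, the former with 4 to 31 reads per library, Egr1 is an immediate early transcription factor, Faim2 an inhibitor of apoptosis and Rab17 a small GTPase. Their log2 fold changes were -2.48, -2.87, -1.89, -2.88 and -2.32. This distance keeps the size of a change, so it picks genes that fell about as much as Ucp1. The 8 other tested thermogenic genes, with log2 fold changes of -1.14 to 0.33, could therefore not be among the 5, and Elovl3 could not enter. Their absence does not show whether they varied with Ucp1.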

How the data were processed

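RNA-seq of mouse aorta was analysed in 6 libraries, 3 control and 3 knockout, grouped by title and genotype label. HISAT2, edgeR, CASAVA 1.8 and SAMtools 1.3.1 are listed in the submitters' processing notes. Counting program, annotation and strand setting: not given in the sources used here, so reads of overlapping genes are uncertain. The table the authors deposited holds a whole-number read count and an FPKM per gene and library. The notes name build GRCm39, but 54907 of 55227 shared identifiers (99.4%) had the positions of GENCODE M21, so positions are GRCm38. The FPKM the authors deposited divide by a length that, in 14156 of 14485 genes with at least 20 counts in control replicate 1 (97.7%, within 1%), equals the sum of distinct exons, with shared bases counted repeatedly. Levels of different genes were therefore set per kilobase of merged GENCODE M21 exons, or of the longest transcript, both chosen after seeing the data. FPKM served for marker sums and for ratios within a library.

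Counts were fitted in R 4.3.3 with edgeR 4.0.16 (filterByExpr, TMM, robust glmQLFit, glmQLFTest, Benjamini-Hochberg adjustment over 16139 genes, threshold 0.05). The standard error is the log2 fold change over the root of F. Alternatives were DESeq2 1.42.0, limma 3.58.1 (voom), RLE factors, nuclear protein-coding genes only, no filter, a replicate block and leaving out each library. The steps were tested on simulated counts. The members and gene lists were chosen with earlier results of these data known. By rule, the genes named are the members, Ogt, list genes past the threshold with up to 4 others of smallest p, and the 5 profiles nearest to Ucp1. Of the cell markers other than those of adipocytes, only genes past the threshold are named. Other genes named with values were chosen after their values were seen.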

Additional observations from a re-analysis of the deposited data

How the results depend on the processing

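The number of calls depended on the tool and on single libraries. Over all genes it was 557, and 1501 by DESeq2, 28 with the replicate block and 7 to 911 when each library was left out in turn. Among the thermogenic members it was 2, and 4 by DESeq2 (with Dio2 and Prdm16), 1 with the replicate block (Ucp1) and 1 to 3 with a library left out. In the wider thermogenic list it was 3, and 6 by DESeq2, 0 with the replicate block (7 lower at an unadjusted p under 0.05) and 0 to 3 with a library left out (6 to 11 lower and 0 to 2 higher at an unadjusted p under 0.05). Over all genes, the share with an unadjusted p under 0.05 was taken in the main edgeR fit only (11.3% lower and 11.5% higher). The unadjusted counts of the other fits therefore have no share to be set against. The cause of the differing numbers of calls was not tested. Ucp1 was called in all 12 alternatives, and Ucp3, which was never called, ranged from -0.3 to 0.09 with a library left out, with a positive sign in the fits without control replicate 3 (0.09) and knockout replicate 1 (0.06). The other 8 tested members kept their direction in the 12 alternatives. The differences in log2 ratio kept their sign with each library left out, from -2.93 to -2.66 for Ucp1 to Ucp2, -2.29 to -1.94 for Ucp1 to Cidea, -2.61 to -2.36 for Ucp1 to adipocyte markers and -0.86 to -0.39 for Cpt1b to Cpt1a. The deviations of same-numbered libraries correlated at 0.0524, 0.0856 and -0.0601, and those of differently numbered libraries at -0.0981 to 0.0972. Replicate numbers thus gave no sign of pairing, which 3 libraries per group cannot exclude, and the block is reported only here. Control replicate 2, with 3038782 counts, limits Ucp3 (5 reads), Cox7a1 (6 reads) and Elovl3 (2 reads).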
